A study of Rattus norvegicus with 18 samples.

Results

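Acute phase plasma proteins are secreted by hepatocytes, and their liver transcripts are followed here for 10 genes: A2m, Orm1, Crp, Hp, Fga, Fgb, Fgg, Lcn2, Cp and Hpx. They were taken from the array by gene symbol, and all 10 were found, among 14217 genes measured. They had 15 probe sets, and each gene was represented by the probe set with the highest mean signal over 18 arrays. The livers came from adult male Sprague Dawley rats in 3 diet groups, each of 6 arrays. HFD+PE rats received a high fat diet together with 150 mg per kg per day of an extract of pomegranate skin, HFD rats the same diet without the extract, and chow rats a chow diet. Feeding lasted 8 weeks and was followed by an overnight fast. The submitters described the HFD livers as fatty and the HFD+PE and chow livers as normal. The labels do not say what the diets and the extract were made of.

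During inflammation, interleukin-6, interleukin-1 and glucocorticoids act on hepatocytes through the factors STAT3, NF-kB, C/EBP and the glucocorticoid receptor, and the liver raises the synthesis of a set of plasma proteins. The set differs between species. In the rat, alpha-2-macroglobulin, a broad protease inhibitor encoded by A2m, is the classical strong responder, while C-reactive protein, encoded by Crp, circulates at a high level in healthy animals and responds weakly. The other members carry out transport, clotting and protection: alpha-1-acid glycoprotein (Orm1) binds drugs and steroids, haptoglobin (Hp) binds free haemoglobin, hemopexin (Hpx) binds haem, ceruloplasmin (Cp) carries copper and oxidises iron, fibrinogen (Fga, Fgb and Fgg) forms clots, and lipocalin 2 (Lcn2) binds bacterial iron carriers.

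Values are RMA log2 signals as deposited, rounded to 0.1, so a difference of 1 is a 2-fold change. A signal cannot be compared between probe sets as an amount of transcript, so comparisons are made within a gene. Between HFD+PE 3 and 4, between HFD 1 and 2 and between chow 3 and 4, no probe set was over 2 log2 units apart, while the remaining 150 pairs of arrays had 18 to 109 such probe sets. The mean of such a pair was used as 1 animal, so each group had 5. Animals are listed in the order of their numbers, with the pair as HFD+PE 3-4, HFD 1-2 and chow 3-4. Hepatocyte markers were bright, with 9 measured markers averaging 9.26 to 14.96, and neutrophil markers were dim, with 8 measured markers averaging 3.33 to 5.04. Added hybridization controls were at a higher level on 5 arrays (chow 1, 2 and 3, HFD+PE 1 and 3), where they averaged 12.35 to 12.9, than on the other 13, where they averaged 11.4 to 11.8, so the higher set held no HFD array.

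The promoter windows of 5 members are shown because the fibrinogen chains varied together between animals and because Orm1 and Crp had lower means in HFD+PE livers. Each holds 250 bases before and 50 bases after the start site in RefSeq's GRCr8 table, in the direction of the gene, and capitals mark matches to the motifs described after them.
Fga, chr2:170671919-170672218, plus strand: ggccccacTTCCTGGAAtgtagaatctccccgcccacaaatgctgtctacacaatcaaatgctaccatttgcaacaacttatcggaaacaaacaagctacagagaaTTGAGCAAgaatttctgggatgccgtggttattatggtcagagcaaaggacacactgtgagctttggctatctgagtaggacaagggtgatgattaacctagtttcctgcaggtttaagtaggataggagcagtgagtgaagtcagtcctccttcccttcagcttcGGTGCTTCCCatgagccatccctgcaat
Fgb, chr2:170700826-170701125, minus strand: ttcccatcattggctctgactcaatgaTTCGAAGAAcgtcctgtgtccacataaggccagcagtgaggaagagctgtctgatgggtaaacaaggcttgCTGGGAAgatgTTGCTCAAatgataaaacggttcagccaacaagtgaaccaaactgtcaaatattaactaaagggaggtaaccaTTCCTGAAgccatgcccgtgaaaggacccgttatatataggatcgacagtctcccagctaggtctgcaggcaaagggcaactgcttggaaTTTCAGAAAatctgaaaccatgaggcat
Fgg, chr2:170652833-170653132, plus strand: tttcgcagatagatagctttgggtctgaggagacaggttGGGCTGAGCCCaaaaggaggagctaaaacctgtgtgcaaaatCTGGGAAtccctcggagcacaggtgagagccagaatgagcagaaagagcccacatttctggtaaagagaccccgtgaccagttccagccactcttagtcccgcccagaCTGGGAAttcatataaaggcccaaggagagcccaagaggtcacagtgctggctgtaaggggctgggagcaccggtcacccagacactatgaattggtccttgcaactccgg
Orm1, chr5:81788259-81788558, plus strand: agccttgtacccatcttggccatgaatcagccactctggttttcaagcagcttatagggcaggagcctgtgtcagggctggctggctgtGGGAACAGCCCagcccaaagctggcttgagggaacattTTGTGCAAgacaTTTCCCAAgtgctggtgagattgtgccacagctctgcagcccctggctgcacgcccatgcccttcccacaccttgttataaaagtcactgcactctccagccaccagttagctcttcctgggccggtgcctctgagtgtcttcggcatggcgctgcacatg
Crp, chr13:87693812-87694111, plus strand: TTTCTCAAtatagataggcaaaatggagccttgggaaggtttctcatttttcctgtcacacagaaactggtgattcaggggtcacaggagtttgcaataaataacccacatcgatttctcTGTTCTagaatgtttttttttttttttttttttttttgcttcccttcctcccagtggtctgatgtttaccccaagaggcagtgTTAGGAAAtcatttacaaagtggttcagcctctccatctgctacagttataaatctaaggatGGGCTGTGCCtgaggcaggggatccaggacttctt
The window was found for 8 of the 10 members, all but A2m and Hp, whose genes lie in GRCr8 at chr4:156570163-156619870 and chr19:54449151-54453701. The 5 motifs, each searched on both strands, were a STAT site (TTCNNNGAA), the type II interleukin-6 element (CTGGGAA), C/EBP (TTNNGNAA), NF-kB (GGG and CC with any 5 bases between them) and an arm of the glucocorticoid response element (TGTTCT). Counting from 1 at the first transcribed base, the Fga window held a STAT match at -242, a C/EBP match at -144 and an NF-kB match at 23. The Fgb window held a STAT match at -223, the interleukin-6 element at -152, and C/EBP matches at -141, -68, 23 and 24, the last pair overlapping. The Fgg window held the interleukin-6 element at -169 and -61 and NF-kB matches at -211 and -210 that overlap on opposite strands. In Orm1 there were C/EBP matches at -123 and -111 and overlapping NF-kB matches at -161 and -160. Crp held C/EBP matches at -250 and -47, the glucocorticoid element arm at -130 and an NF-kB match at 16.
Of 33469 promoters in the table, 8.87% held the STAT motif, 11.3% the interleukin-6 element, 41.3% the C/EBP motif, 47.3% the NF-kB motif and 20.7% the glucocorticoid element arm. Among the 8 member windows, the STAT motif was in 2 (Fga and Fgb), the interleukin-6 element in 3 (Fgb, Fgg and Lcn2), C/EBP in 7 (all but Fgg), NF-kB in 5 (Crp, Fga, Fgg, Lcn2 and Orm1) and the glucocorticoid element arm in 1 (Crp). The matches are descriptions of letters in these windows.

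A2m, the protease inhibitor that is the major acute phase protein of the rat, had the highest mean in HFD+PE livers. Its signal was 6.9, 7.8, 8.45, 8.4 and 8.2 in HFD+PE livers, 7.2, 6.7, 6.8, 6.9 and 6.5 in HFD livers, and 6.7, 8.1, 6.1, 5.8 and 7.0 in chow livers. In 4 of 5 HFD+PE animals A2m lay above every HFD animal, HFD+PE 1 lay within the HFD range, and chow 2 and chow 6 lay within the HFD+PE range. A2m averaged 7.95 ± 0.64 in HFD+PE livers, 6.82 ± 0.26 in HFD livers and 6.74 ± 0.90 in chow livers (SD, n = 5 each).
The HFD+PE mean of A2m was 2.19-fold the HFD mean (log2 difference 1.13, SE 0.36, 95% interval of the fold 1.30 to 3.69). All 5 HFD+PE animals lay above the HFD mean. The exact permutation test over animals gave p = 0.0238 for A2m alone, two-sided, where the smallest p that 5 against 5 allows is 0.00794. In limma's test over all genes, however, the Benjamini-Hochberg adjusted p was 0.993, so the difference did not pass.
Against chow, the HFD+PE mean of A2m was 2.31-fold as high (log2 difference 1.21, SE 0.36, 95% interval of the fold 1.37 to 3.90). This also missed the threshold (limma adjusted p = 0.211, exact permutation p = 0.0556). It passed with the 18 arrays counted as separate animals (1.40, limma adjusted p = 0.0365), but not with the replicate number of those arrays as a block (1.40, limma adjusted p = 0.0593). It also passed with only the arrays of the low hybridization control set (1.93, limma adjusted p = 0.0136), a setting chosen after seeing the data. Those arrays leave out chow 1, chow 2 and HFD+PE 1 and 1 array each of the averaged chow and HFD+PE pairs. In A2m, chow 2 was the highest chow animal and HFD+PE 1 the lowest HFD+PE animal. With only the animals of that set the A2m difference missed the threshold (1.73, limma adjusted p = 0.292). Those were chow 5 and 6, HFD+PE 2, 5 and 6 and every HFD animal. Between HFD and chow livers, A2m differed by 0.08 (SE 0.36, limma adjusted p = 0.981). The 95% interval of that fold, 0.628 to 1.78, spans both directions, and with each animal left out in turn the log2 difference ran from -0.155 to 0.42, the highest being without chow 2.

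**Figure D1:**
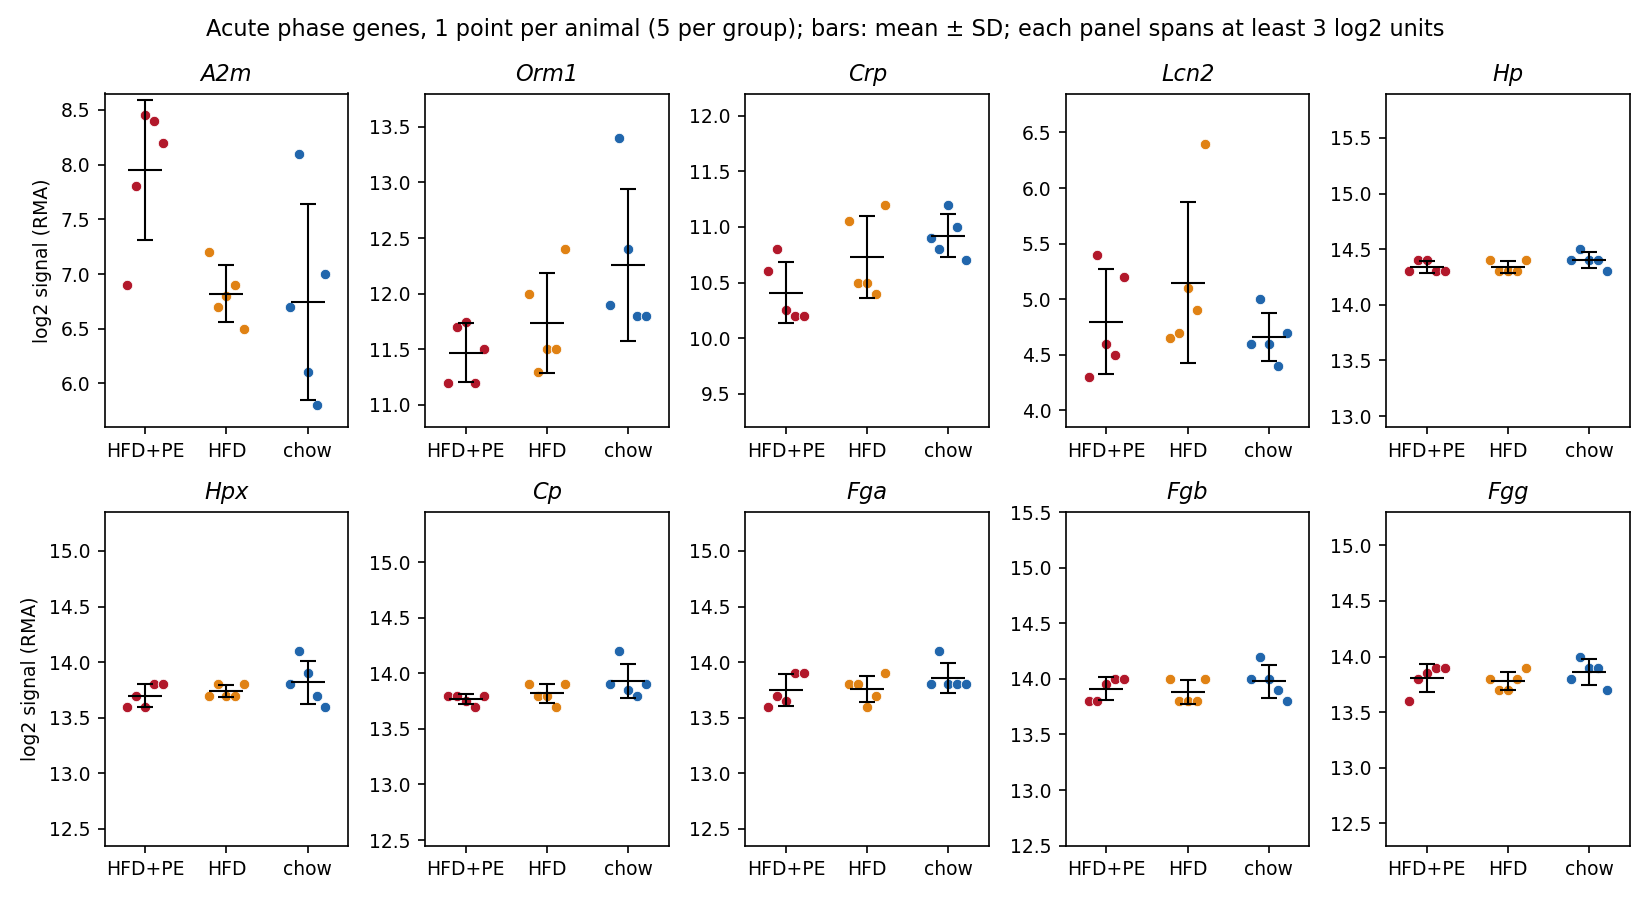
Log2 signal (RMA) of the 10 acute phase genes, 1 point per animal, with HFD+PE left, HFD in the middle and chow right, 5 animals each. Bars are mean ± SD, and every panel spans at least 3 log2 units, so the wide scatter of A2m, Orm1, Crp and Lcn2 can be set against the tight values of the 6 bright genes. A2m averaged 7.95 in HFD+PE livers, 6.82 in HFD livers and 6.74 in chow livers.

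Orm1, which encodes the drug-binding alpha-1-acid glycoprotein, ran the other way and was lowest in HFD+PE livers. Orm1 signals were 11.2, 11.7, 11.75, 11.2 and 11.5 in HFD+PE livers, 12.0, 11.3, 11.5, 11.5 and 12.4 in HFD livers, and 11.9, 13.4, 12.4, 11.8 and 11.8 in chow livers. Every HFD+PE animal lay below every chow animal, by as little as 0.05 between HFD+PE 3-4 and the lowest chow animals, which is under the rounding step. Chow 2 stood well above the rest.
Orm1 averaged 11.5 ± 0.26 in HFD+PE livers, 11.7 ± 0.45 in HFD livers and 12.3 ± 0.68 in chow livers (SD, n = 5 each). The HFD+PE mean was 0.578-fold the chow mean (log2 difference -0.79, SE 0.27, 95% interval of the fold 0.388 to 0.862). With no overlap between the groups, the exact permutation p was 0.00794, the smallest the design allows. Of all genes, 0.732% were lower without overlap in this comparison, and limma's adjusted p for Orm1 was 0.269. Without chow 2 the difference was -0.505, and among arrays of the low hybridization control set it was -0.475. With only the animals of that set, where chow 5 and 6 were the only chow animals, it was -0.333.
Between HFD and chow livers the Orm1 difference was -0.52 (SE 0.27, limma adjusted p = 0.678), and it was -0.235 without chow 2. It was -0.06 with only the animals of the low control set, where chow 5 and 6 were the only chow animals. HFD+PE and HFD livers differed by -0.27 in Orm1 (SE 0.27, limma adjusted p = 0.993). That difference was -0.105 without HFD 6, the highest HFD animal.

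Crp, which encodes the phosphocholine-binding C-reactive protein, was also lowest in HFD+PE livers. Crp signals were 10.6, 10.8, 10.25, 10.2 and 10.2 in HFD+PE livers, 11.05, 10.5, 10.5, 10.4 and 11.2 in HFD livers, and 10.9, 10.8, 11.2, 11 and 10.7 in chow livers. The HFD+PE and chow groups overlapped through HFD+PE 2 alone, and the HFD animals fell into both ranges. Crp averaged 10.4 ± 0.28 in HFD+PE livers, 10.7 ± 0.37 in HFD livers and 10.9 ± 0.19 in chow livers (SD, n = 5 each).
The HFD+PE mean of Crp was 0.702-fold the chow mean (log2 difference -0.51, SE 0.16, 95% interval of the fold 0.553 to 0.892). The exact permutation test gave p = 0.0238 for Crp alone and limma's adjusted p was 0.238. Over 26 other settings of the fit the Crp difference lay between -0.61 and -0.44. Against HFD it was -0.32 (SE 0.16, limma adjusted p = 0.993), or -0.20 without HFD 6. HFD and chow livers differed by -0.19 (SE 0.16, limma adjusted p = 0.831) in Crp, or by -0.31 without HFD 6.

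Lcn2, the iron carrier-binding lipocalin that neutrophils also make, had a dim signal, no higher than the array medians of 5.4 to 5.5 in any animal but HFD 6. Lcn2 signals were 4.3, 5.4, 4.6, 4.5 and 5.2 in HFD+PE livers, 4.65, 4.7, 5.1, 4.9 and 6.4 in HFD livers, and 4.6, 5.0, 4.6, 4.4 and 4.7 in chow livers. The groups overlapped, and HFD 6 stood alone. The Lcn2 difference between HFD and chow livers was 0.49 (SE 0.28, limma adjusted p = 0.714), and it was 0.18 without HFD 6. HFD+PE and HFD livers differed by -0.35 in Lcn2 (SE 0.28, limma adjusted p = 0.993), and by -0.04 without HFD 6. Over the 8 neutrophil markers, which were dim, HFD 6 had a list mean of 3.75, against 3.59 to 3.80 over the HFD animals. The part of neutrophils in the Lcn2 level was not tested.

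In the probe sets used, the haemoglobin- and haem-binding proteins and ceruloplasmin were bright and nearly level between groups. Hp signals were 14.3, 14.4, 14.4, 14.3 and 14.3 in HFD+PE livers, 14.4, 14.3, 14.3, 14.3 and 14.4 in HFD livers, and 14.4, 14.5, 14.4, 14.4 and 14.3 in chow livers. For Hp the largest difference between group means was -0.06, for both HFD+PE and HFD against chow, with a 95% interval of the fold of 0.875 to 1.05. Hpx averaged 13.7 ± 0.10 in HFD+PE livers, 13.7 ± 0.06 in HFD livers and 13.8 ± 0.19 in chow livers (SD, n = 5 each).
Cp signals were 13.8, 13.8, 13.75, 13.7 and 13.8 in HFD+PE livers, 13.9, 13.8, 13.8, 13.7 and 13.9 in HFD livers, and 13.9, 14.2, 13.85, 13.8 and 13.9 in chow livers. The HFD+PE values of Cp lay at or below the low end of the chow range, with a difference of -0.16 (limma adjusted p = 0.469, exact permutation p = 0.0317). Another Cp probe set, with a mean signal of 12.7, differed by -0.38 between HFD+PE and chow livers (exact permutation p = 0.0238). Between HFD and chow livers that probe set differed by -0.25, against -0.11 for the brightest one. A Cp probe set with a mean of 8.36 differed by 0.03, so the probe sets of this gene did not give the same size.

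The 3 fibrinogen chains are assembled into 1 secreted protein, and their genes are neighbours on chromosome 2. In the probe sets used, the chains had nearly equal group means. Fga averaged 13.8 ± 0.14 in HFD+PE livers, 13.8 ± 0.11 in HFD livers and 13.9 ± 0.13 in chow livers (SD, n = 5 each). Fgb differed by 0.03 between HFD+PE and HFD livers and by -0.07 between HFD+PE and chow livers, with limma 95% intervals of the fold of 0.902 to 1.16 and 0.841 to 1.08. Fgg differed by 0.03 and -0.05 in the same comparisons. Over the 3 chains and 3 comparisons, the intervals of the probe sets used lay within 0.814- to 1.16-fold. A second Fga probe set had a mean signal of 11.6. It differed by -0.48 between HFD and chow livers (exact permutation p = 0.0476), against -0.10 for the brighter one. Between HFD+PE and chow livers it differed by -0.36, against -0.11. Between HFD+PE and HFD livers it differed by 0.12, against -0.01. The other Fgb probe sets were dim, with means of 3.57 and 3.33 against 13.9 for the one used.
The 6 members with the brightest signals, Hp, Hpx, Cp and the fibrinogen chains, were among the 47 brightest genes, whose median SD within groups was 0.092, against 0.158 to 0.179 in dimmer ranges. A signal of 15 was the highest on the arrays, and whether probes of these genes were saturated cannot be read from the deposited values. The SD within groups was 0.653 for A2m, higher than in 98.9% of genes, 0.514 for Lcn2 and 0.497 for Orm1.

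**Figure D2:**
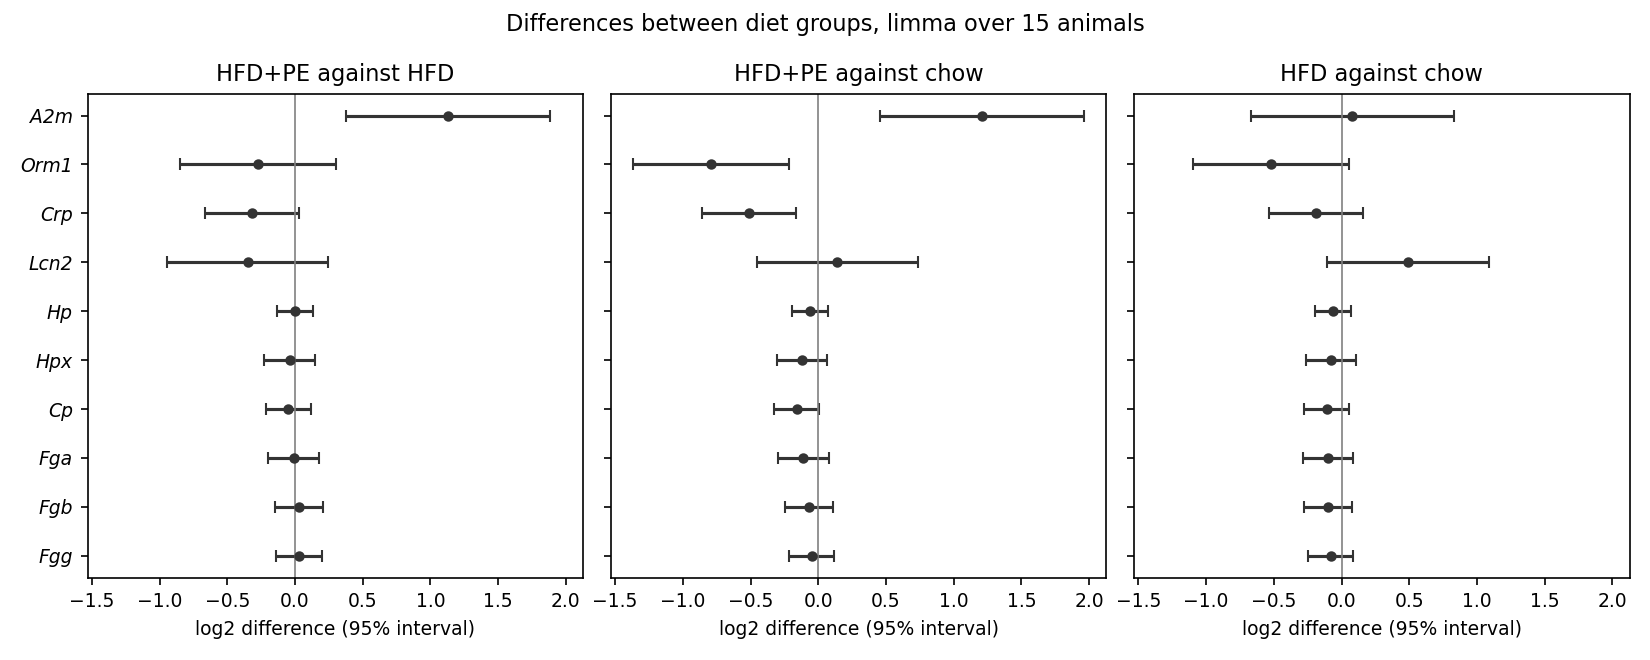
Log2 differences of the 10 genes between diet groups, with 95% intervals from limma over 15 animals. The left panel is HFD+PE against HFD, the middle HFD+PE against chow and the right HFD against chow. A2m stood at 1.13 and 1.21 in the first panels and at 0.08 in the right one, while the 6 bright genes stayed between -0.16 and 0.03.

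Counted together, 0 of the 10 members passed the adjusted p in limma for any of the 3 comparisons, and the same held for 0.0% of all genes. At an unadjusted p under 0.05 in HFD+PE against HFD, 1 member was higher (A2m) and 0 were lower, where 1.64% of all genes were higher and 1.06% lower. In HFD+PE against chow, 1 member was higher (A2m) and 2 were lower (Orm1 and Crp), where 6.0% of genes were higher and 5.14% lower. In HFD against chow the count was 0 of 10 in either direction, where 4.08% of genes were higher and 3.57% lower. The medians over the 10 members were -0.025, -0.09 and -0.09 in the same order, beside 0.00, 0.01 and 0.00 over all genes. Both HFD+PE comparisons use the same HFD+PE animals, and both comparisons with chow use the same chow animals, so they are not independent. limma's F test for any difference between the 3 groups gave adjusted p-values of 0.384 for A2m, 0.496 for Crp and 0.539 for Orm1, and 0 of 14217 genes passed it. These 3 of the 10 members, and 8.14% of all genes, had an unadjusted p under 0.05 in it.

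Single animals stood apart across many members at a time. Chow 2 was the highest chow animal in 9 of 10 members, all but Crp. HFD 6 was highest or tied for highest among HFD animals in 9 of 10, all but A2m, and highest alone in 5. HFD+PE 1 was lowest or tied for lowest among HFD+PE animals in 8 of 10. The same counts were not made over all genes, so they are not shown to be particular to these members. In chow 2, A2m lay 1.36 and Orm1 1.14 above the chow mean.
Some markers of other cells were also high in chow 2. It had the highest chow mean over lymphocyte (4.89) and endothelial markers (8.30), but not over stellate and matrix, cholangiocyte or erythrocyte markers. Over hepatocyte markers it had the lowest chow mean, 12.49 against 12.63 to 12.93. Its mean over 8 neutrophil markers was 4.16, where the remaining chow animals had 3.73 to 3.79, and its mean over 10 macrophage and Kupffer cell markers was 9.42, against 8.48 to 8.79. The neutrophil difference lay in the calcium-binding protein genes S100a9, at 6.7 in chow 2 and 4.4 to 5.2 in the other chow animals, and S100a8, at 4.5 and 3.05 to 3.4. Over the 6 other neutrophil markers the mean was 3.68 in chow 2, within the 3.63 to 3.75 of the other chow animals. The cytokine gene Il1b was at 7.9 in chow 2 and at 6.5 in each of the other chow animals. S100a8, S100a9 and Il1b were picked after their values had been seen. HFD 6, also high in 9 members, had the lowest mean of the HFD animals over the macrophage markers (7.80, against 7.90 to 8.72) and over 7 endothelial markers (7.66, against 7.94 to 8.30). The part of these cells in the levels of the members was not tested, and in whole liver RNA fewer cells of a type and less RNA per cell cannot be told apart.

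**Figure D3:**
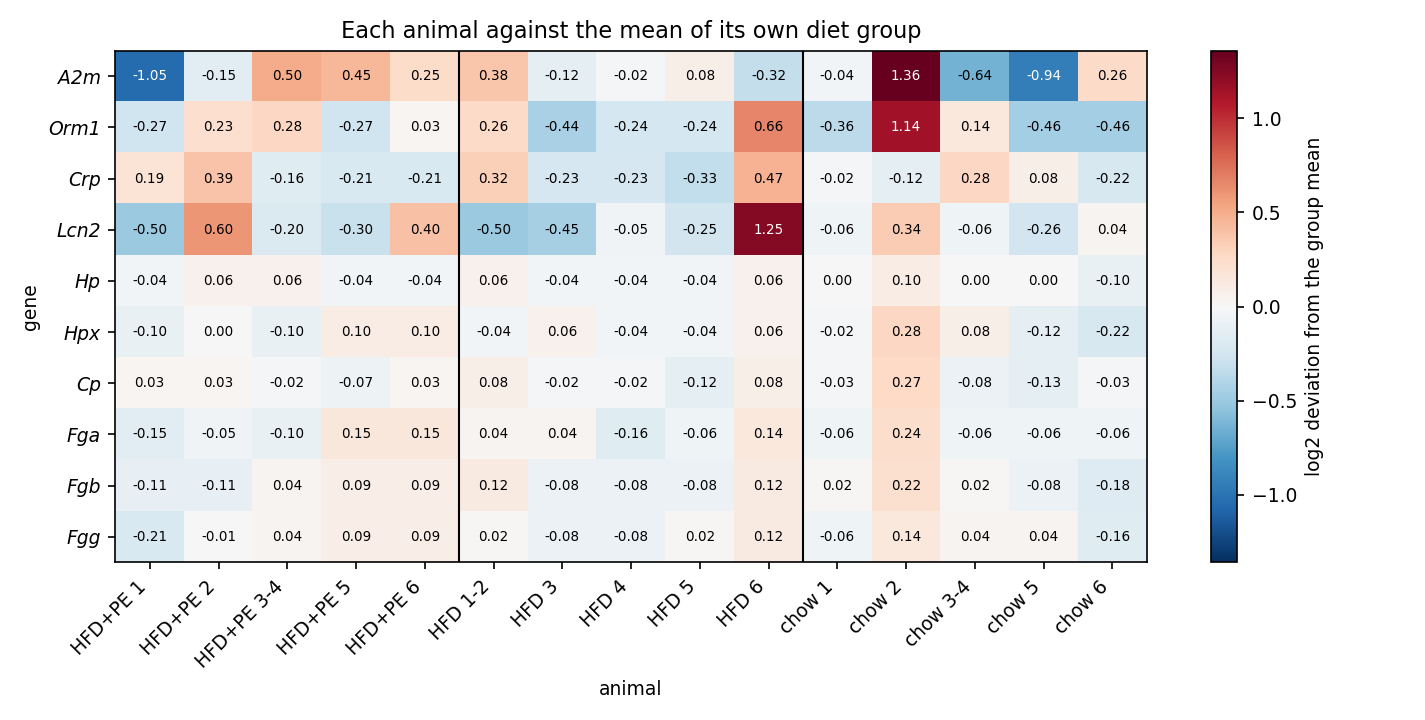
Deviation of each animal from the mean of its own diet group, in log2 units, for the 10 acute phase genes in rows and the 15 animals in columns, HFD+PE left, then HFD, then chow. Red is above and blue below the group mean. The chow 2 column is above its group mean in every gene but Crp, with 1.36 for A2m and 1.14 for Orm1, and HFD 6 is above in every gene but A2m, with 1.25 for Lcn2.

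Across the 15 animals many pairs of members varied together. Of 45 pairs of members, 20 had a Pearson correlation that passed at a Benjamini-Hochberg adjusted permutation p of 0.05 (19 positive, 1 negative), and Spearman's correlation passed in 12. The share of passing pairs among other genes was not counted, so these counts are not shown to be particular to the members. The fibrinogen chains Fgb and Fgg had r = 0.815 and rho = 0.800 (adjusted p = 0.0036 and 0.0126). Fga had r = 0.793 with Fgb and 0.742 with Fgg.
Orm1 correlated with Hp (r = 0.857, rho = 0.830, adjusted p = 0.0036 and 0.0126) and with Cp (r = 0.874, rho = 0.789, adjusted p = 0.00495 and 0.0126). Without chow 2, 5 pairs passed (4 positive, 1 negative). The strongest was then Orm1 with Crp (r = 0.811, adjusted p = 0.018, against r = 0.592 over all animals), and Crp with Cp also passed (r = 0.742, adjusted p = 0.032, against r = 0.487). Orm1 and Hp had r = 0.764 in that set (adjusted p = 0.032), Fgb and Fgg r = 0.755 (adjusted p = 0.032), and Fga with either other chain r = 0.647 (adjusted p = 0.0728 with Fgb and 0.0697 with Fgg). Without the 2 animals farthest from the median of the first gene of a pair, 5 pairs passed, and with deviations from the group means 8 passed.
A2m had a negative correlation with Crp (r = -0.659, rho = -0.645, adjusted p = 0.0296 and 0.0435) and none that passed with the other members over the 15 animals (r = -0.03 to 0.31). Lcn2 had no pair that passed over the 15 animals (r = 0.03 to 0.32). As deviations from the group means, Lcn2 passed with Orm1 (r = 0.580, adjusted p = 0.0465), and A2m had r = 0.440 to 0.579 with the fibrinogen chains, Cp, Hpx and Orm1, none of which passed. The A2m and Crp relation no longer passed without the 2 animals farthest from the median of A2m (r = -0.491, adjusted p = 0.241) or as deviations from the group means (r = -0.437, adjusted p = 0.128). It passed without chow 2 (r = -0.726, adjusted p = 0.0332).

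**Figure D4:**
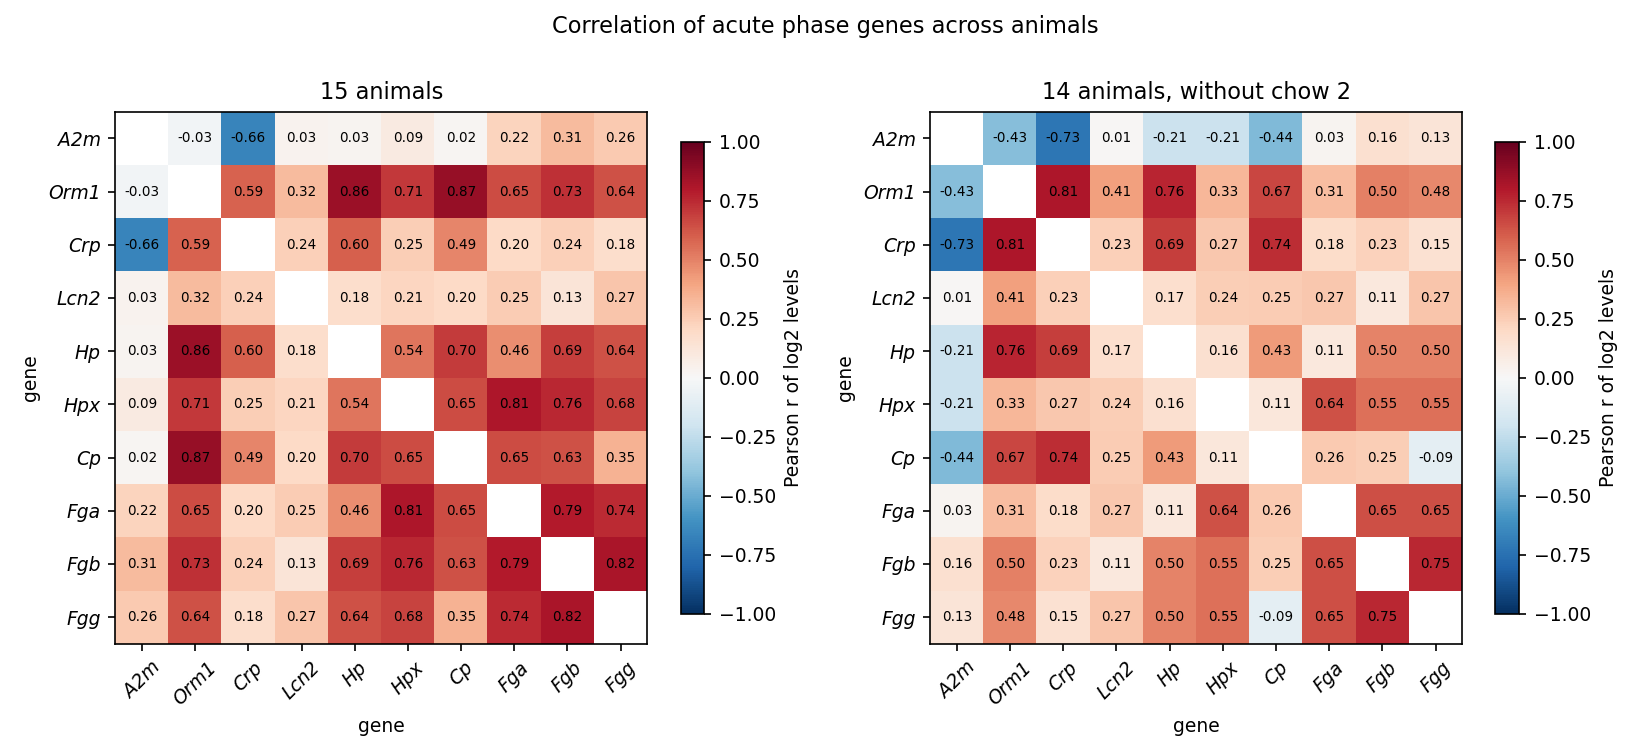
Pearson correlation of log2 signals between the 10 acute phase genes, over 15 animals on the left and over the 14 animals without chow 2 on the right. Blue is negative and red positive. Over 15 animals the A2m row lies between -0.03 and 0.31 except for Crp at -0.66, and the block of Orm1, Hp, Cp, Hpx and the fibrinogen chains is paler without chow 2, with Orm1 and Cp at 0.87 and 0.67.

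Outside the set, the gene whose signal followed A2m most closely over the 15 animals was Cenpm, a centromere protein gene (Pearson r = 0.846), followed by Crx, a homeobox gene (0.824), Atg16l1 of autophagy (0.822), Sorl1, a sorting receptor (0.786), and Vav2, an exchange factor (0.778). Crx had a mean signal of 3.31, which is dim. The closest gene was C4bpa, the C4b-binding protein alpha chain, for Orm1 (0.918), Fgl1, a fibrinogen-like hepatocyte protein, for Hpx (0.867), and Vmp1 for Crp (0.872). Orm1 was closest to Hp (0.857), and Nherf1 to Cp (0.919). Fga was closest to Pitpna (0.889), Fgb to Il7 (0.836), Fgg to Adam17 (0.893) and Lcn2 to Dusp10 (0.863). Each is the highest correlation over all other genes measured, so it is a description, and all rest on the same animals, including those that stood apart.

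The other proteins of the response and its signalling were measured as lists of related genes, and 0 of their members passed limma's adjusted p in any comparison. Of 24 other positive acute phase proteins measured, Lrg1, an inflammation-induced leucine-rich glycoprotein, was the 1 gene with an unadjusted p under 0.05 against chow, for both HFD+PE and HFD, lower in each, where 5.14% and 3.57% of all genes were lower. Lrg1 signals were 6.3, 6.7, 6.7, 6.6 and 6.9 in HFD+PE livers, 7.1, 6.6, 6.4, 6.8 and 6.5 in HFD livers, and 7.2, 7.5, 7.1, 7.4 and 7.0 in chow livers. All HFD+PE animals lay below all chow animals in Lrg1, as in 0.732% of genes, with differences of -0.60 against chow for HFD+PE (SE 0.14, limma adjusted p = 0.112) and -0.56 for HFD (SE 0.14, limma adjusted p = 0.426). In HFD+PE against HFD the gene of this list with the smallest p was Mt1, a metallothionein, at 0.43 (SE 0.23, limma adjusted p = 0.993).
The median over the 24 genes was 0.005 in HFD+PE against HFD, -0.045 in HFD+PE against chow and -0.05 in HFD against chow. Over 10 negative acute phase proteins, whose synthesis falls in inflammation, the medians were 0.02, 0.085 and 0.03 in the same order. None had an unadjusted p under 0.05: the smallest belonged to Igf1 in HFD+PE against HFD (-0.17, SE 0.08), to Serpina6, which encodes the corticosteroid-binding globulin, in HFD+PE against chow (0.38, SE 0.19), and to Igf1 in HFD against chow (0.11, SE 0.08).

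Among 28 genes of cytokines, receptors and signalling, Nr3c1, the glucocorticoid receptor, had its highest mean in HFD livers. Nr3c1 signals were 8.9, 9.3, 9.15, 9.5 and 9.4 in HFD+PE livers, 9.5, 9.6, 9.5, 9.8 and 9.8 in HFD livers, and 9.1, 9.1, 9.35, 9.3 and 9.2 in chow livers. The HFD and chow animals did not overlap (0.309% of genes were higher without overlap), while HFD+PE 5 touched the HFD range. The Nr3c1 difference was -0.39 for HFD+PE against HFD (SE 0.11, limma adjusted p = 0.993) and 0.43 for HFD against chow (SE 0.11, limma adjusted p = 0.426).
Cebpa, a liver transcription factor, differed by -0.43 and 0.52 in the same comparisons (SE 0.18 each, limma adjusted p = 0.993 and 0.569), with HFD 6 highest at 11.1. Stat3, which carries the interleukin-6 signal, averaged 9.38 ± 0.36 in HFD livers and 9.93 ± 0.55 in chow livers (SD, n = 5 each, limma adjusted p = 0.615), with chow 2 at 10.8. Its feedback inhibitor Socs3 was dim, at 4.32 in HFD livers and 4.59 in chow livers, and differed by -0.27 (SE 0.11, limma adjusted p = 0.611). At an unadjusted p under 0.05 in HFD against chow, 2 of 28 were higher and 2 lower, where 4.08% and 3.57% of all genes were. In HFD+PE against HFD, 0 were higher and 2 lower, where 1.64% and 1.06% of all genes were. In HFD+PE against chow, Nfkb1 (0.42, SE 0.12), the interleukin-1 receptor accessory protein Il1rap (0.22, SE 0.09) and the kinase Jak1 (0.21, SE 0.09) were higher at an unadjusted p under 0.05. That made 3 of 28 higher and 0 lower, where the shares over all genes were 6.0% and 5.14%. The medians over the list were 0.005 in HFD+PE against HFD and -0.02 in both comparisons with chow. Il6 itself was dim, at 2.95 ± 0.17 in HFD+PE livers, 2.95 ± 0.16 in HFD livers and 2.98 ± 0.19 in chow livers (SD, n = 5 each).

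Of 14 genes of receptors, haem and iron handling, Cd163, the macrophage receptor that takes up haptoglobin bound to haemoglobin, was lowest in HFD+PE livers. Cd163 signals were 6.9, 7.7, 7.35, 7.0 and 7.4 in HFD+PE livers, 8.0, 7.5, 7.5, 7.7 and 7.0 in HFD livers, and 7.7, 9.1, 8.15, 7.6 and 7.9 in chow livers. HFD+PE and chow overlapped through HFD+PE 2, and chow 2 was again highest. The Cd163 difference was -0.82 for HFD+PE against chow (SE 0.25, limma adjusted p = 0.217) and -0.55 for HFD against chow (SE 0.25, limma adjusted p = 0.625).
The asialoglycoprotein receptor subunit Asgr2, part of the hepatocyte receptor that clears desialylated plasma proteins, differed by 0.25 between HFD+PE and chow livers (SE 0.08, limma adjusted p = 0.223). Tfrc, the transferrin receptor, differed by 0.55 between HFD and chow livers (SE 0.25, limma adjusted p = 0.625). Medians over the 14 genes were -0.015 in HFD+PE against HFD, -0.06 in HFD+PE against chow and -0.045 in HFD against chow.
Macrophage and Kupffer cell markers were lower along with Cd163, which is 1 of them. In HFD+PE against chow, 9 of 10 measured markers were lower at an unadjusted p under 0.05, where 5.14% of all genes were, with list means per animal of 7.50 to 8.43 in HFD+PE livers and 8.48 to 9.42 in chow livers, which do not overlap. HFD livers ranged from 7.80 to 8.72. The highest chow mean was that of chow 2, and the other chow animals ranged from 8.48 to 8.79. In HFD against chow all 10 were lower, where 46.6% of all genes had a lower mean. At an unadjusted p under 0.05, 6 of the 10 were lower, where 3.57% of all genes were. The median of the 10 markers was -0.54, beside -0.82 in HFD+PE against chow. In HFD+PE against HFD, 9 were lower, where 46.6% of all genes had a lower mean. At an unadjusted p under 0.05, 0 of the 10 were lower, where 1.06% of all genes were. The median there was -0.33, and Lyz2 was higher by 0.44. Of 8 stellate cell and matrix markers, 7 were lower in HFD+PE against chow, where 45.6% of all genes had a lower mean, with a median of -0.35. At an unadjusted p under 0.05, 3 of the 8 were lower, where 5.14% of all genes were. In HFD against chow all 8 were lower, with a median of -0.22, and 1 was at an unadjusted p under 0.05, where 3.57% of all genes were. The part of these cells in the differences of A2m, Orm1 and Crp was not tested. The 9 hepatocyte markers had medians of -0.04, -0.01 and 0.00 for HFD+PE against HFD, HFD+PE against chow and HFD against chow. Of these markers, Cyp2e1 alone had an unadjusted p under 0.05 against chow, and it was higher in both high fat groups. Its difference was 0.63 in HFD+PE livers (SE 0.14, limma adjusted p = 0.108) and 0.40 in HFD livers (SE 0.14, limma adjusted p = 0.569). Over all genes, 6.0% and 4.08% were higher at an unadjusted p under 0.05.

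**Figure D5:**
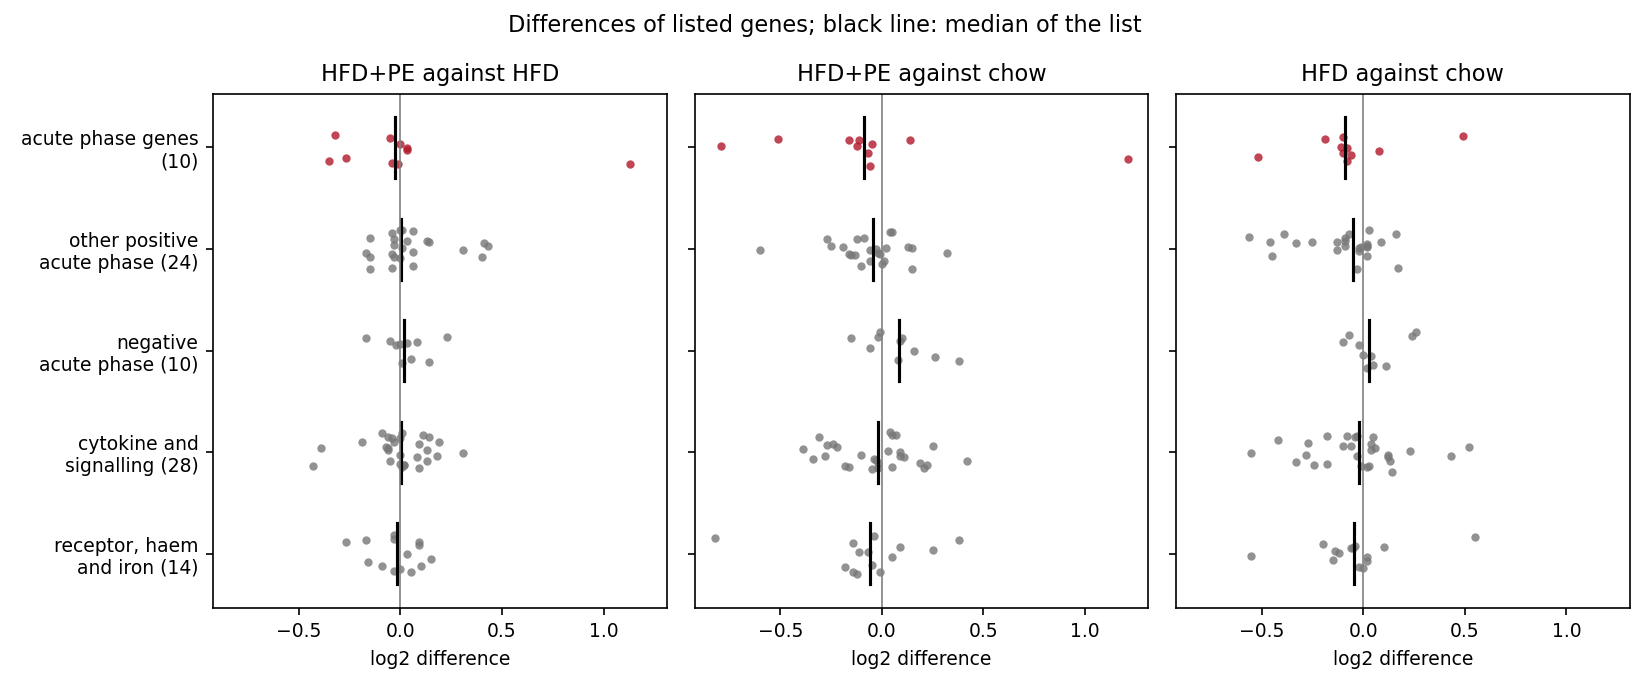
Log2 differences of the genes in 5 lists, 1 point per gene, in HFD+PE against HFD (left), HFD+PE against chow (middle) and HFD against chow (right). The black line is the median of a list and the number of measured genes stands in brackets. The 10 acute phase genes, in red, reach 1.13 and 1.21 through A2m, while the list medians stay near 0.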

How the data were processed

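Liver RNA of 18 samples was hybridized to Affymetrix arrays. The submitters' processing notes name Affymetrix Expression Console and RMA, which corrects background, quantile-normalizes and summarizes probes, without versions or a genome build. The values deposited by the authors are log2 signals of 31099 probe sets in steps of 0.1, and they were used unaltered. Precision is limited by how many animals there were and by the rounding, since arrays have no read depth. The 57 control probe sets, 436 with several gene symbols and 9780 with none were left out, and the brightest probe set per symbol gave 14217 genes with no filter on dim ones. All symbols came from GEO's platform annotation. Of 20826 probe sets with 1 symbol, 20758 were found in RefSeq's gene table by Entrez identifier, and 0 symbols changed.

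The members and gene lists were chosen with earlier results of these data known. The 3 close array pairs were averaged, although the labels call all 18 arrays biological replicates. That is an inference from the values. By the SD of the difference, the HFD+PE pair (0.260) was no closer than the closest of the other pairs (0.260), while the chow pair was at 0.215 and the HFD pair at 0.117. The labels give the groups equal replicate numbers, and the main fit did not pair the samples by them. Deviations of same-numbered arrays correlated between -0.305 and 0.189 (median 0.0375). Those of other-numbered arrays correlated between -0.248 and 0.227 (median -0.0175).

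The diet groups were fitted in R 4.3.3 with limma 3.58.1 over 15 animals, 1 mean per group, with eBayes and Benjamini-Hochberg adjustment over all genes at 0.05, two-sided. The fit was tested on simulated data. Each member also had an exact permutation test of its group means over 252 splits. Correlations used 100000 permutations, adjusted over 45 pairs. The p-values account only for variation between these samples, and limma's also draw on the spread over all genes. The named genes were the 10 members, the 5 genes most like A2m and the 1 most like each other member. In each list of related genes they were up to 4 with the smallest unadjusted p under 0.05 (otherwise the 1 with the smallest p). The same rule also marked genes of the cell type marker lists, of which only Cyp2e1 and Lyz2 are named. Group differences of the neutrophil, lymphocyte, endothelial, cholangiocyte and erythrocyte lists are not given. Il6, Il1b, S100a8 and S100a9 were added after their values were seen. Alternatives covered arrays as animals, the replicate number as a block, a second number in the sample descriptions, hybridization controls, probe set choice, dim genes, scaling, groups in the fit, the prior and each animal left out.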

Additional observations from a re-analysis of the deposited data

Results flagged for a closer look

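In the 30 groups of 5 animals checked, 1 for each member and diet, 3 held an animal far from the others by Dixon's gap test, and chance flags about 1 group in 20. Lcn2 was at 6.4 in HFD 6, where the other HFD animals were at 4.65 to 5.1. Fga was at 14.1 in chow 2, where the other chow animals were all at 13.8. Cp was at 14.2 in chow 2, where the other chow animals were at 13.8 to 13.9. The values of Fga and Cp are steps of 0.1, so ties within a group narrow its range.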

How the results depend on the processing

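Over 26 alternatives (25 for Lcn2, which is too dim for the filter), 751 member differences were counted as keeping their direction and side of the threshold. Another 3 passed that had not, and 23 were counted as changing sign. The cause was not tested. The 3 were A2m in HFD+PE against chow: 1.40 with 18 separate arrays (limma adjusted p = 0.0365), 1.40 with the second description number (0.0261) and 1.93 with arrays of the low control set (0.0136), so 1 member was called in each. That last setting, chosen after seeing the data, also gave 1 member in the F test. With the replicate number as a block, 0 members and 119 genes were called in HFD+PE against chow (A2m 1.40, adjusted p = 0.0593). Over the 26 alternatives its adjusted p ran from 0.0136 to 0.407, and in HFD+PE against HFD from 0.264 to 1.0 (differences 1.005 to 1.405). Genes called in HFD+PE against chow were 145 with 18 arrays, 144 with the second number, 3 with low-set arrays, and 0 to 26 with 1 animal left out (26 without HFD+PE 3-4), against 0. In HFD against chow 1 was called with low-set arrays and 0 to 1 with 1 animal left out. In HFD+PE against HFD 1 was called with animals of the low set and 0 to 2 with 1 animal left out (2 without HFD+PE 3-4). Correlated pairs numbered 5 without the 2 farthest animals, 8 as deviations and 5 without chow 2, against 20.
The animals of the low set were chow 5 and 6, HFD+PE 2, 5 and 6 and every HFD animal. Sign changes lay near 0. With animals of the low set they were Fgb 0.03 and Hpx 0.09 (HFD against chow), Fga 0.073 and Hpx 0.027 (HFD+PE against HFD), and Fga 0.033, Fgb 0.083, Fgg 0.067 and Hpx 0.117 (HFD+PE against chow). With low-set arrays they were Hpx 0.007 (HFD against chow), Fga 0.04 and Hpx 0.01 (HFD+PE against HFD), and Fgb 0.05, Fgg 0.017 and Hpx 0.017 (HFD+PE against chow). With the mean of all probe sets, Fga was 0.055 and Fgb -0.013 in HFD+PE against HFD. With 1 animal left out, A2m ran from -0.155 to 0.42 in HFD against chow, Fga from -0.05 to 0.028 in HFD+PE against HFD, and Lcn2 from -0.01 to 0.265 in HFD+PE against chow. Fgg ran from -0.09 to 0.002 in HFD+PE against chow, which was not counted as a sign change. Hp, at 0.0 in HFD+PE against HFD, ran from -0.015 to 0.015 and was counted as keeping its direction. The HFD arrays were all in the low control set, so that set and diet are partly confounded.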
